A study of Homo sapiens with 24 samples.

Results

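The introns described here were those that stayed in a measurable part of the cytoplasmic mRNA of control cells. They were chosen by 2 values averaged over the 3 cytoplasmic libraries with the control guide and DMSO: an IR ratio of at least 0.1, and at least 20 reads as intron depth plus spliced reads. The IR ratio is the share of intron depth in the total of depth plus spliced reads, so 0 means always spliced and 1 means always retained. Only introns that overlap no known exon by the naming of the tables (227775 of 233113) could enter. Of these, 133406 had enough reads and 1433 passed, in 927 genes, 912 of them protein coding. Because some introns share bases with alternative forms of themselves, the 1433 introns lie in 1100 separate loci, and 634 of the genes held only 1 of them. The values in the 3 selecting libraries are given as a description, and no test uses them as an arm.

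The cells were RKO-iCas9, a colon carcinoma line in which doxycycline switches on Cas9. The inducible Cas9 line was derived from a single cell, so differences between such lines were not sampled, while cells carrying a guide were sorted as a pool. All groups received doxycycline at 100 ng/mL for 5 days and carried a lentiviral guide, either sgAAVS1, against the AAVS1 safe-harbour locus (the control), or sgERH, against ERH, a small conserved nuclear protein known to bind RNA-processing factors. Cells were then given cycloheximide (CHX) at 25 µg/mL or DMSO for 4 h and split with detergent into nucleus and cytoplasm, and polyadenylated RNA was sequenced, with 3 libraries in each of the 8 groups. The labels call the replicates biological and say no more about their origin, so the p-values measure the spread between these libraries.

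Introns are normally removed before mRNA leaves the nucleus, and transcripts that keep one tend to be held and spliced late or degraded there. A retained intron that reaches the cytoplasm often places a stop codon early in the reading frame. Such a transcript can then be a target of nonsense-mediated decay (NMD), which needs translation and is blocked by CHX. Transcripts with an intron in the untranslated leader, or with an intron that opens no early stop, may escape that route.

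The sequences of 8 members are shown because they carry the contrasts described later: IPO7 gained retention with CHX, SLC29A2, ZDHHC8 and ZC3HAV1L lost it, CFAP54 gained it with sgERH and CUL7 lost it, and COQ4 and PIGL were retained less in the nucleus than in the cytoplasm. Not all of these contrasts were stable. Those of PIGL, CFAP54 and CUL7, among others, turned or were lost under another setting or when a library was left out, as given below. Each sequence is given 5′ to 3′ on the transcribed strand, read from GRCh38. Capitals mark the first and last pair of bases and, where there is one, the first stop codon in frame with the upstream coding exon.
IPO7: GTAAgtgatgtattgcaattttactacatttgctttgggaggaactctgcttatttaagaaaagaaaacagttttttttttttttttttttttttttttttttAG
SLC29A2: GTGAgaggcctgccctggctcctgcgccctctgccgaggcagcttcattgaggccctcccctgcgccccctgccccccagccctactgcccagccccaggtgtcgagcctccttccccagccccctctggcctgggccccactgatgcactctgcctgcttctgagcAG
ZDHHC8: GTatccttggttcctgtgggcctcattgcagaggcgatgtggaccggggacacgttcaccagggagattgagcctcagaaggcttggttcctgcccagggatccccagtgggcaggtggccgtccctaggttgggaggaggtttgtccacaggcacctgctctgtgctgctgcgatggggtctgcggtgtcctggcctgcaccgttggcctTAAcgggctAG
ZC3HAV1L: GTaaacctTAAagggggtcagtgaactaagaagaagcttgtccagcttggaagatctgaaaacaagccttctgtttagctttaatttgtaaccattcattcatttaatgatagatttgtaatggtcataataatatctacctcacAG
CFAP54: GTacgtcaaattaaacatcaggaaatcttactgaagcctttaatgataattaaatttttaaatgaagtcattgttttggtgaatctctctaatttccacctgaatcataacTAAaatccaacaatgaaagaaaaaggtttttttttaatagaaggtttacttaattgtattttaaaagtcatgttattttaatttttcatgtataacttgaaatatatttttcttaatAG
CUL7: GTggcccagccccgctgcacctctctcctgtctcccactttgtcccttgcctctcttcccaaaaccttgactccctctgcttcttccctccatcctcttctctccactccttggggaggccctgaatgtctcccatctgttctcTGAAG
COQ4: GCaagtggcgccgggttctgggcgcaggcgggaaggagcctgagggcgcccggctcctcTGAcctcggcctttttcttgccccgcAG
PIGL: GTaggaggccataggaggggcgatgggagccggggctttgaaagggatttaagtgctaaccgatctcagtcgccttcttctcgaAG

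These introns lie at chr11:9437975-9438079 (IPO7, + strand), chr11:66369200-66369368 (SLC29A2, − strand), chr22:20139893-20140114 (ZDHHC8, + strand), chr7:139026561-139026707 (ZC3HAV1L, − strand), chr12:96580690-96580919 (CFAP54, + strand), chr6:43038693-43038841 (CUL7, − strand), chr9:128322929-128323015 (COQ4, + strand) and chr17:16217462-16217547 (PIGL, + strand), all between coding exons. The IPO7 intron holds 22.9% G and C and ends in a long run of T, and its stop codon overlaps the splice site itself. The SLC29A2 intron holds 71.0% G and C and likewise opens with a stop. COQ4 starts with GC in place of GT and PIGL has no stop in frame.

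The members were shorter, richer in G and C and nearer to the transcript ends than other introns with enough reads. Their median length was 973 bases, against 2026 in the other 131973 introns, and 23.2% were at most 300 bases long, against 14.2%. Median GC content was 51.6% against 42.8%. First introns made up 26.2% of the members against 14.8%, last introns 19.8% against 9.95%, and the only intron of a transcript 7.33% against 1.27%. An intron in the 5′ UTR was the case for 28.8% against 12.9%, and one in the 3′ UTR for 2.79% against 0.638%. Coding introns were 957 members, of which 876 (91.5%) opened an in-frame stop, against 96.5% of the other coding introns. GC-AG ends were seen in 2.58% and 1.04%. An exon of an annotated retained-intron transcript covered 306 members (21.4%) against 5.59% of the others.

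**Figure D1:**
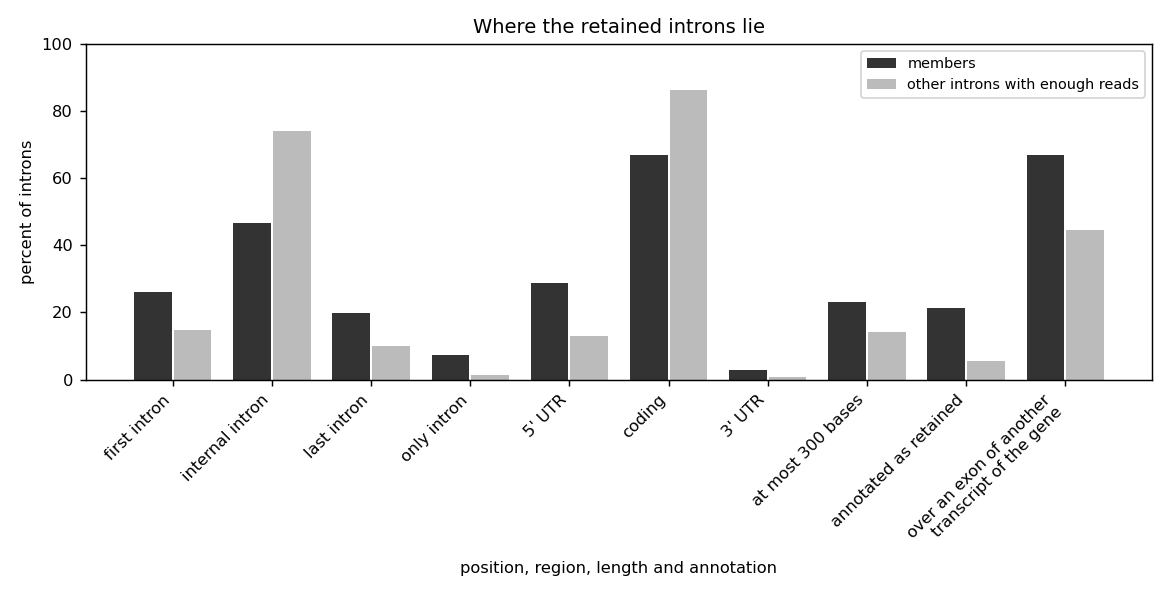
Bars give the percent of introns (y axis) in each class of position, region, length and annotation (x axis), dark for the 1433 members and light for the 131973 other introns with enough reads. Members are more often first, last, only, untranslated-region and short introns, and 21.4% against 5.59% lie inside an annotated retained-intron transcript.

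The chosen signal is not in every case a retained whole intron. An exon of another transcript of the same gene overlapped 66.8% of the members, against 44.6% of the other introns, so alternative first or last exons can add to their depth. Such an exon overlaps the named introns of SLC2A6, RNF166, SULT1A1, ICAM3, B3GAT1, LZTR1, BBS7, CEP76, PTPRE, ZDHHC8, TRIM52 and CUL7. It also overlaps those of LCAT, POLM, BTNL9, ARGLU1, DDX17, RPS24, RACK1, ERCC1, NEK2, CENPT and EMSY. An exon of another gene overlapped 202 members (14.1%), against 12.7%. The tables themselves carry warnings: over the 3 selecting libraries, 424 to 450 members had none, 445 to 487 were marked as a minor isoform, 218 to 228 as low splicing, 139 to 179 as low cover and 139 to 158 as unevenly covered. The median member had an intron depth of 15.5 and 53.7 spliced reads there, while the median of the other introns was 0.0 and 273. Just inside the threshold stood introns of EMSY and HSD3B7, both at an IR ratio of 0.1, and just outside it introns of DCTD at 0.0997 and PCMTD2 at 0.0995.

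The libraries held 43984259 to 79450333 counts in the cytoplasm and 27849343 to 41798198 in the nucleus. MALAT1, a nuclear noncoding RNA, was at 3570 to 6540 CPM (reads of a gene scaled to equal library size) in nuclear and 176 to 358 in cytoplasmic libraries. In the cytoplasm its mean was 203 with sgAAVS1 and 316 with sgERH (DMSO), and 221 and 338 with CHX, so nuclear RNA in the cytoplasmic fraction moved with the guide. Mitochondrial mRNA moved the same way, from 3.54% to 5.64% of cytoplasmic counts with DMSO and from 0.447% to 0.674% of nuclear counts. Their part in the results was not tested. In DMSO cytoplasm, ERH itself averaged 133 ± 10.4 CPM with sgAAVS1 and 73.4 ± 13.4 with sgERH (SD, n = 3), and with CHX its means were 118 and 76.9, without overlap, but in the nucleus the groups overlapped (16.8 ± 3.12 and 13.2 ± 1.99 with DMSO, 13.8 ± 0.624 and 14.9 ± 3.52 with CHX). The nuclear sgERH library with CHX labelled replicate 2 stood apart with the highest nuclear ERH level of its group and the lowest retention. Counts of called members that rest on it are given without it as well, while the values of named introns include it. Of 8 markers of colon epithelium, KRT8 and KRT18 had a median of at least 10 CPM and CDH1, KRT19, KRT20 and VIL1 were under 1 CPM, so this line shows few defining markers of its tissue. All 6 fibroblast and all 6 leukocyte markers had a median under 1 CPM, and their sums over a list ran from 0.0126 to 5.7 and from 0.0 to 33.7 CPM. In bulk RNA, fewer cells with an RNA and less of it per cell cannot be told apart. Whether reads were counted by strand is not stated, so introns that overlap another gene are uncertain. Besides those marked where they appear, the named introns of ICAM3, SULT1A1, CAPN15, ERCC1 and HSD3B7 overlap an exon of another gene. Those of PIGL, CEP76, LZTR1, CENPT and MMP24OS overlap another gene outside its exons.

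In control cytoplasm the members spanned a wide range. Over the 3 selecting libraries the median of the mean IR ratio was 0.171 (quartiles 0.127 and 0.288), 152 members (10.6%) reached 0.5, and 30 lay above 0.9. In the other groups of the cytoplasm the median was 0.187 with sgERH and DMSO, 0.125 with sgAAVS1 and CHX and 0.140 with sgERH and CHX. In the nucleus it was 0.691 with sgAAVS1 and DMSO, 0.622 with sgERH and DMSO, 0.637 with sgAAVS1 and CHX, and 0.493 with sgERH and CHX. The library medians of the nucleus (0.457 to 0.699) thus lay above all those of the cytoplasm (0.117 to 0.195). Introns outside the set had a mean IR ratio of 0.00334 in control cytoplasm and 0.117 in control nuclei.

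**Figure D2:**
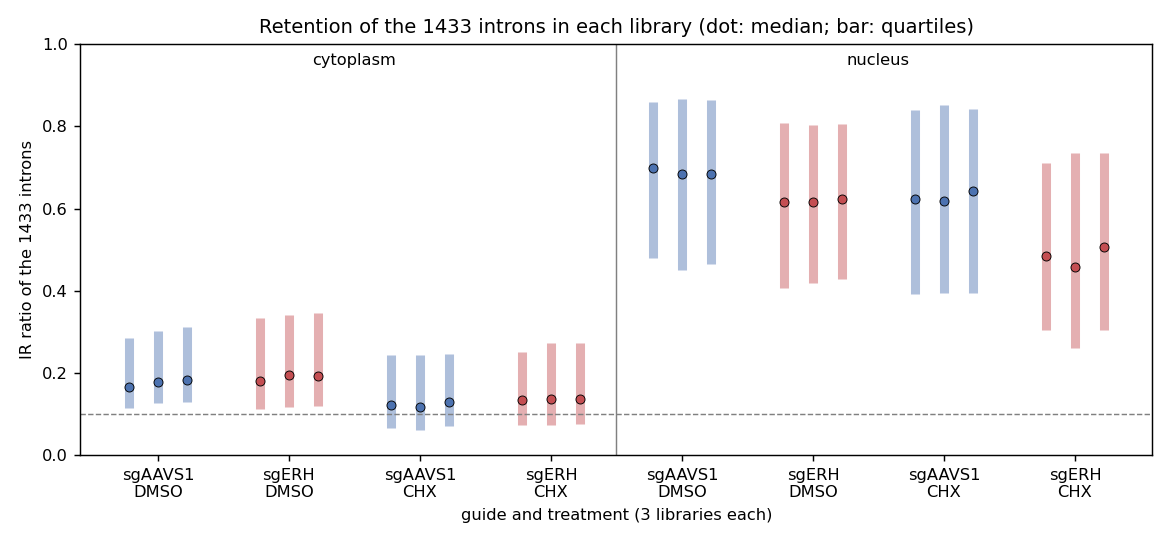
Each dot is the median IR ratio of the 1433 introns in 1 library and each bar spans their quartiles (y axis), in the 8 groups of guide, treatment and fraction (x axis); the dashed line marks 0.1, the value used to choose the members. Nuclear medians run from 0.457 to 0.699 and cytoplasmic ones from 0.117 to 0.195.

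Fold changes below are those of intron depth relative to spliced reads, on the log2 scale with a standard error, from the edgeR quasi-likelihood test with Benjamini-Hochberg adjustment over all introns tested. A call needed an adjusted p of at most 0.05, a log2 fold change of 1 or more in either direction, and an IR ratio averaging 0.05 or more in whichever group retained the intron more. All 1433 members were tested in the cytoplasm, 1413 in the nucleus and 1424 between fractions. The members had a higher median intron depth than the other introns, and the part of depth in the share of calls was not tested. Shares of members are therefore given beside the share of all introns tested and beside the medians. The IR limit of a call also favours members in the cytoplasm, where they were chosen. Introns outside the set averaged 0.0053 in sgERH cytoplasm with DMSO, below that limit of 0.05. A larger share of members called in the cytoplasm follows in part from their choice and is no result by itself. Each comparison was also run with TMM scaling of intron depth and of spliced reads separately, called centring below. It left the median of all introns between −0.13 and 0.12 within a fraction, but at 4.65 between fractions. Because the members were chosen by DMSO cytoplasm, introns retained there and not with CHX could enter and introns retained only with CHX could not, and every comparison of CHX with DMSO has to be read with that choice.

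Most members were retained more in the nucleus than in the cytoplasm, and a few short ones were retained less. With CHX and sgAAVS1, 1162 of 1424 members were higher in the nucleus and 13 lower, against 63.7% and 0.0551% of all introns tested. The median log2 difference was 3.66 in members and 5.85 in all introns. A smaller difference in members than in other introns follows from their choice by cytoplasmic retention and is no result. With TMM scaling of each read type, 96 members were higher and 566 lower with a median of −1.20, and of all 116226 introns 20518 were higher and 2255 lower with a median of 4.65, so the direction of many members turned with the scaling. Of the 13 lower members, 11 were at most 300 bases long, and all 13 had a GC content at or above the median of the members.

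The introns lower in the nucleus included COQ4, PIGL, ICAM3 and TPM4. COQ4, which acts in coenzyme Q synthesis, had IR ratios of 0.124, 0.153 and 0.141 in control cytoplasm with CHX and 0.057, 0.0122 and 0.0203 in the nucleus. All nuclear values lay below all cytoplasmic ones (log2 −2.48 ± 0.42, adjusted p = 2.89e-05). PIGL, an enzyme of glycolipid anchor synthesis, had 0.269, 0.202 and 0.282 in the cytoplasm and 0.00892, 0.0741 and 0.0379 in the nucleus. Its difference was −3.02 ± 0.52 (adjusted p = 3.03e-05), but it turned to 1.09 (adjusted p = 0.259) when spliced reads were counted only for the exact junction. For TPM4, a tropomyosin, the leader intron at chr19:16067307-16067533 (−2.31 ± 0.80, adjusted p = 0.0117) had 0.903, 0.859 and 0.888 in the cytoplasm and 0.29, 0.64 and 0.81 in the nucleus. Without nuclear sgAAVS1 replicate 1 the call was lost (−1.49, adjusted p = 0.0971). This intron is not in the canonical transcript of TPM4 and had a mean of 95.3 reads in the selecting libraries. Its IR ratio is a share of such reads, not of all TPM4 mRNA. ICAM3, an adhesion molecule, fell from 0.207, 0.194 and 0.246 to 0.0, 0.0337 and 0.0592 (adjusted p = 0.0102), with a nuclear depth of only 0.793, too low for a fold.

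At the other end stood introns with almost no cytoplasmic depth once CHX was present. SLC2A6, of the sugar transporter family, had IR ratios of 0.864, 0.799 and 0.817 in the nucleus and 0.00148, 0.0 and 0.01 in the cytoplasm with CHX. RNF166, a ubiquitin ligase, had 1.0, 0.84 and 0.918 against 0.00246, 0.0 and 0.0255. SULT1A1, a sulfotransferase, had 0.927, 0.984 and 0.894 against 0.0317, 0.0141 and 0.0144. All 3 introns were near 0 in the cytoplasm with CHX. They had entered the set on few reads, with a mean of 20.3, 46.5 and 42.4 for depth plus spliced reads in the selecting libraries.

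In the cytoplasm, CHX went with less retention of the members. In sgERH cells, whose libraries took no part in the choice but whose DMSO arm shares the treatment of those that did, 137 of 1433 members were lower with CHX and 6 higher, against 1.01% and 0.254% of all introns tested. This is 9.56% and 0.419% of the members, a difference from all introns that the IR limit of a call fixes in part. The median log2 change was −0.57 in members and −0.27 in all introns. After centring, 97 were lower and 11 higher, against 344 and 193 of all 49272 introns, and the medians were −0.39 and −0.09. The median change of intron depth was −0.17 and that of spliced reads 0.31, on the log2 scale, with 0.04 for the level of the host gene. Calls in both directions numbered 143 with all libraries, and 74, 91, 79 and 88 without DMSO replicate 1 or 3 or CHX replicate 1 or 3. In sgAAVS1 cells the medians were −0.68 in members and −0.07 in all introns; this is a description, since the DMSO arm chose the members and any other library then tends to lie lower.

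**Figure D3:**
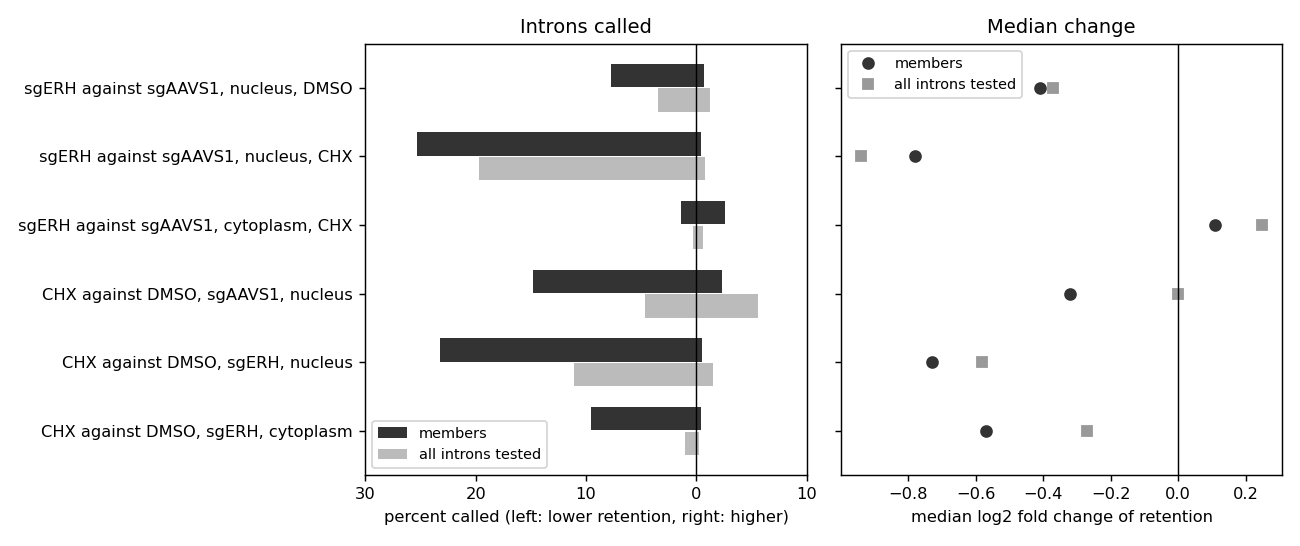
The left panel gives the percent of introns called lower (to the left of 0) or higher (to the right) in 6 comparisons, dark for members and light for all introns tested; the right panel gives the median log2 fold change of retention in members (circles) and in all introns tested (squares). Members are called lower with CHX more often than all introns in sgERH cytoplasm, 9.56% against 1.01%, and their median there is −0.57 against −0.27.

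The members that gained retention with CHX were few. IPO7 is importin 7, a carrier of proteins into the nucleus, and the intron is number 21 of 24. With DMSO its IR ratio was 0.43, 0.437 and 0.481 in sgERH cytoplasm, and with CHX 0.734, 0.74 and 0.715. All CHX libraries were higher (log2 1.73 ± 0.14, adjusted p = 3.31e-05). In control cytoplasm the values went from 0.202, 0.206 and 0.25 with DMSO to 0.687, 0.721 and 0.679 with CHX, and in control nuclei from 0.919, 0.915 and 0.937 to 0.971, 0.973 and 0.981 (log2 1.69 ± 0.24, adjusted p = 0.000231). The gain in control cytoplasm was one of depth, from a mean of 272 to 1590, while spliced reads went from 979 to 704. As the sequence shows, the frame of the upstream exon meets a stop codon at the start of this intron.

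EFL1, a GTPase of ribosome maturation, gained retention in both fractions, in its 5′ UTR intron at chr15:82261798-82261985 (− strand). In sgERH cytoplasm the IR ratio went from 0.0762, 0.115 and 0.0379 with DMSO to 0.284, 0.282 and 0.219 with CHX. In control nuclei it went from 0.025, 0.133 and 0.0692 to 0.574, 0.617 and 0.62, without overlap. The log2 changes were 2.09 ± 0.34 (adjusted p = 0.00512) and 4.16 ± 0.58 (adjusted p = 0.000214). RANGAP1, the activator of the RAN GTPase, gained leader intron retention with CHX in sgERH cytoplasm, from 0.011, 0.0372 and 0.0195 to 0.137, 0.19 and 0.234 (adjusted p = 0.00228). Its depth with DMSO was only 1.55, and in control cytoplasm the values were 0.131 with DMSO and 0.153 with CHX.

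Losses with CHX in the cytoplasm were larger in number. RACK1, a scaffold protein of the small ribosomal subunit, holds the intron at chr5:181241564-181242169 (− strand), in which the small nucleolar RNA SNORD96A is also annotated. Its IR ratio in sgERH cytoplasm was 0.53, 0.467 and 0.371 with DMSO and 0.177, 0.168 and 0.106 with CHX, a change of −2.23 ± 0.25 on the log2 scale (adjusted p = 0.000489). ZC3HAV1L, named for its likeness to the antiviral zinc-finger protein ZC3HAV1, went from 0.859, 0.877 and 0.867 to 0.639, 0.639 and 0.584 (−1.96 ± 0.28, adjusted p = 0.00255). In neither gene did the treatments overlap. POLM, a polymerase of DNA end joining, went from 0.201, 0.254 and 0.114 to 0.0138, 0.0273 and 0.0153 (−3.41 ± 0.56, adjusted p = 0.00539), while spliced reads rose from 32.7 to 220 and the host gene rose (1.49 ± 0.09, adjusted p = 1.29e-09). Here the depth changed less than the spliced reads, from 6.69 to 3.97. BTNL9, a butyrophilin-like gene, went from 0.537, 0.336 and 0.331 to 0.0327, 0.152 and 0.0692 (−3.21 ± 0.64, adjusted p = 0.0138); the call was lost without DMSO replicate 1 (adjusted p = 0.0582), CHX replicate 1 (0.101) or CHX replicate 3 (0.0531).

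In the nucleus, too, members were called lower with CHX more often than higher. In sgAAVS1 nuclei, whose libraries took no part in the choice, 209 of 1413 members were lower with CHX and 33 higher, against 4.69% and 5.57% of all introns tested. So members were called lower in 14.8% and higher in 2.34%, while in all introns both directions were about even. The medians were −0.32 in members and −0.00 in all introns, and centring gave 232 lower and 33 higher, against 6732 and 6823 of all 125590 introns. In sgERH nuclei 328 were lower and 7 higher, against 11.1% and 1.53% of all introns, with medians of −0.73 and −0.58; centred, 152 were lower and 41 higher, against 5293 and 4839 of all introns. Members above 0 were 38.5% in sgAAVS1 nuclei, 22.2% in sgERH nuclei and 23.4% in sgERH cytoplasm. Of all introns tested, 49.9%, 27.9% and 40.5% were above 0, and the fractions were not tested against each other. Without the library that stood apart, 259 members were lower and 8 higher in sgERH nuclei. The 2 nuclear comparisons share no library: 143 members were lower in both, 68.4% of the 209 and 43.6% of the 328, and none was called in opposite directions. Only 33 and 7 members were called higher, so opposite calls had little room. The overlap was not counted over all introns, so it shows nothing particular to the members.

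The effect of CHX in the nucleus went with base composition. Of members with a GC content at or above 51.6%, 23.2% were lower with CHX in sgAAVS1 nuclei (median −0.73), against 6.5% of those below (median 0.06). In sgERH nuclei the shares were 34.1% and 12.4%, with medians of −1.01 and −0.45. In sgERH cytoplasm GC content made no such split, with medians of −0.57 in both. Short members, of at most 300 bases, were lower in 24.7% in sgAAVS1 nuclei against 11.8% of longer ones, but in sgERH cytoplasm in 3.0% against 11.5%. The split by GC content in nuclei was not particular to the members: as a ratio of summed reads, introns outside the set with high GC content changed by −0.37 and those with low GC content by 0.20 in sgAAVS1 nuclei. The corresponding medians of members were −0.74 and 0.02, lower than those of the other introns in both classes. The split by length in sgAAVS1 nuclei was not particular to the members either. Outside the set, introns of at most 300 bases changed by −0.34 and longer ones by 0.1, against −0.73 and −0.22 in members. The opposite split in sgERH cytoplasm had the same direction outside the set. Short introns changed there by −0.11 and longer ones by −0.21, against −0.23 and −0.62 in members. Why GC content and length moved with the change was not tested.

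**Figure D4:**
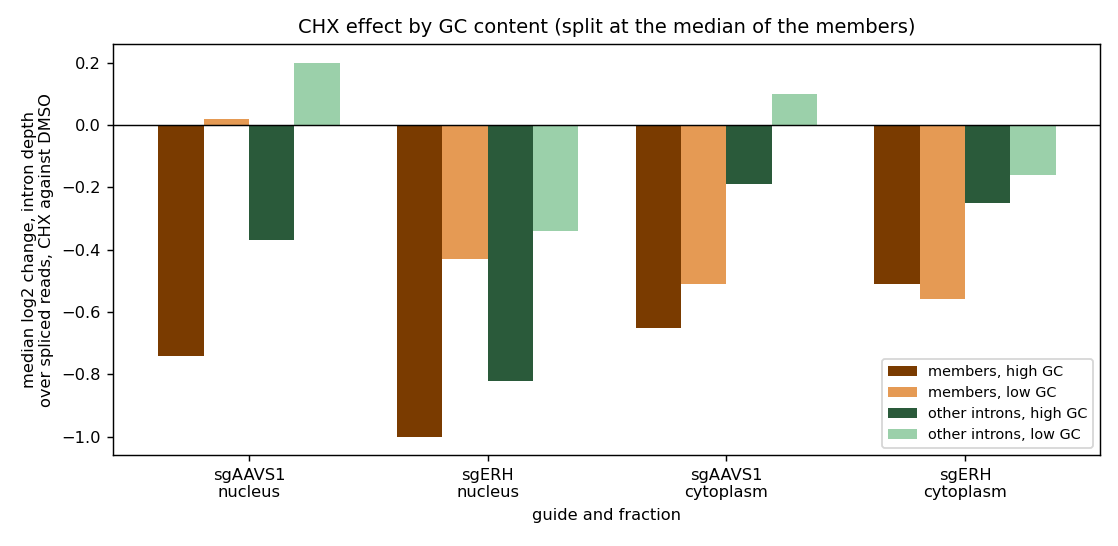
Bars give the median log2 change of intron depth over spliced reads with CHX against DMSO (y axis) in each guide and fraction (x axis), for members and other introns split at the median GC content of the members. In both nuclei the high-GC bars are the lower ones, −0.74 against 0.02 for members with sgAAVS1, while in sgERH cytoplasm the members' bars are −0.51 and −0.56; the DMSO libraries of sgAAVS1 cytoplasm are those that chose the members.

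The members with the largest losses in nuclei with CHX included SLC29A2, ZDHHC8 and EEF1D. SLC29A2, a nucleoside transporter, had IR ratios of 0.846, 0.911 and 0.824 in control nuclei with DMSO and 0.0654, 0.306 and 0.429 with CHX (−4.38 ± 0.67, adjusted p = 0.000452). ZDHHC8, a palmitoyl transferase, went from 0.872, 0.912 and 0.907 to 0.435, 0.783 and 0.447 (−2.99 ± 0.42, adjusted p = 0.000238), and in sgERH nuclei from 0.818, 0.84 and 0.854 to 0.36, 0.25 and 0.24. In both genes the whole nuclear transcript was scarcer with CHX, since the level of SLC29A2 went from 58.8 to 7.28 CPM and that of ZDHHC8 from 128 to 16.4. EEF1D, a subunit of the elongation factor that loads tRNA on the ribosome, lost its 344-base leader intron from 0.843, 0.878 and 0.828 to 0.361, 0.389 and 0.352 (−3.29 ± 0.21, adjusted p = 4.06e-07) with a host level of 1740 and 1400 CPM. The leader intron is not in the canonical transcript of EEF1D and had a mean of 109 reads in the selecting libraries. Its IR ratio is a share of such reads, not of all EEF1D mRNA. The same holds for the next intron of EEF1D, 932 bases long, also a member and with 102 reads. That next intron was at 0.999 with DMSO and 0.995 with CHX in control nuclei and was not called there. It was called lower with CHX in sgERH nuclei (−2.05 ± 0.54, adjusted p = 0.015; lost without DMSO replicate 2 or 3, at 0.0538 and 0.0542) and in sgERH cytoplasm (−1.56 ± 0.38, adjusted p = 0.0355; lost without any 1 of the 6 libraries, at up to 0.131).

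PTPN1, the tyrosine phosphatase PTP1B, fell under both treatments in the nucleus through its last intron (chr20:50581461-50582691, + strand). Control nuclei had IR ratios of 0.547, 0.491 and 0.605 with DMSO and 0.246, 0.246 and 0.283 with CHX; sgERH nuclei had 0.331, 0.353 and 0.34 with DMSO and 0.11, 0.0928 and 0.115 with CHX. None of these 4 groups overlapped another. CHX lowered it by −1.80 ± 0.19 (adjusted p = 2e-05) in control and −2.13 ± 0.19 (adjusted p = 4.81e-06) in sgERH nuclei, and sgERH lowered it by −1.22 ± 0.19 with DMSO and −1.56 ± 0.18 with CHX (adjusted p = 0.00127 and 5.54e-05). Centred, the sgERH changes were −0.91 and −0.71 and no longer calls. In the cytoplasm the values were 0.297 and 0.156 with DMSO and 0.104 and 0.107 with CHX, for sgAAVS1 and sgERH.

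TRA2A and DDX17 gained retention in control nuclei with CHX, the second named for its gene list. TRA2A, an SR-like splicing factor, had IR ratios of 0.463, 0.497 and 0.593 in control nuclei with DMSO and 0.868, 0.876 and 0.928 with CHX for its second intron (chr7:23522433-23531180, − strand), a change of 2.93 ± 0.31 (adjusted p = 2.25e-05). In sgERH nuclei the change was 1.47 ± 0.31 (adjusted p = 0.00361). DDX17, an RNA helicase, went from 0.87, 0.837 and 0.883 to 0.943, 0.959 and 0.956 in control nuclei (1.66 ± 0.25, adjusted p = 0.000412). Both were lower with sgERH in nuclei with CHX, TRA2A by −1.40 ± 0.32 (adjusted p = 0.00529) and DDX17 by −2.18 ± 0.25 (adjusted p = 4.97e-05). After centring, the sgERH change was −0.55 and no call for TRA2A, and −1.32 and still a call for DDX17.

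**Figure D5:**
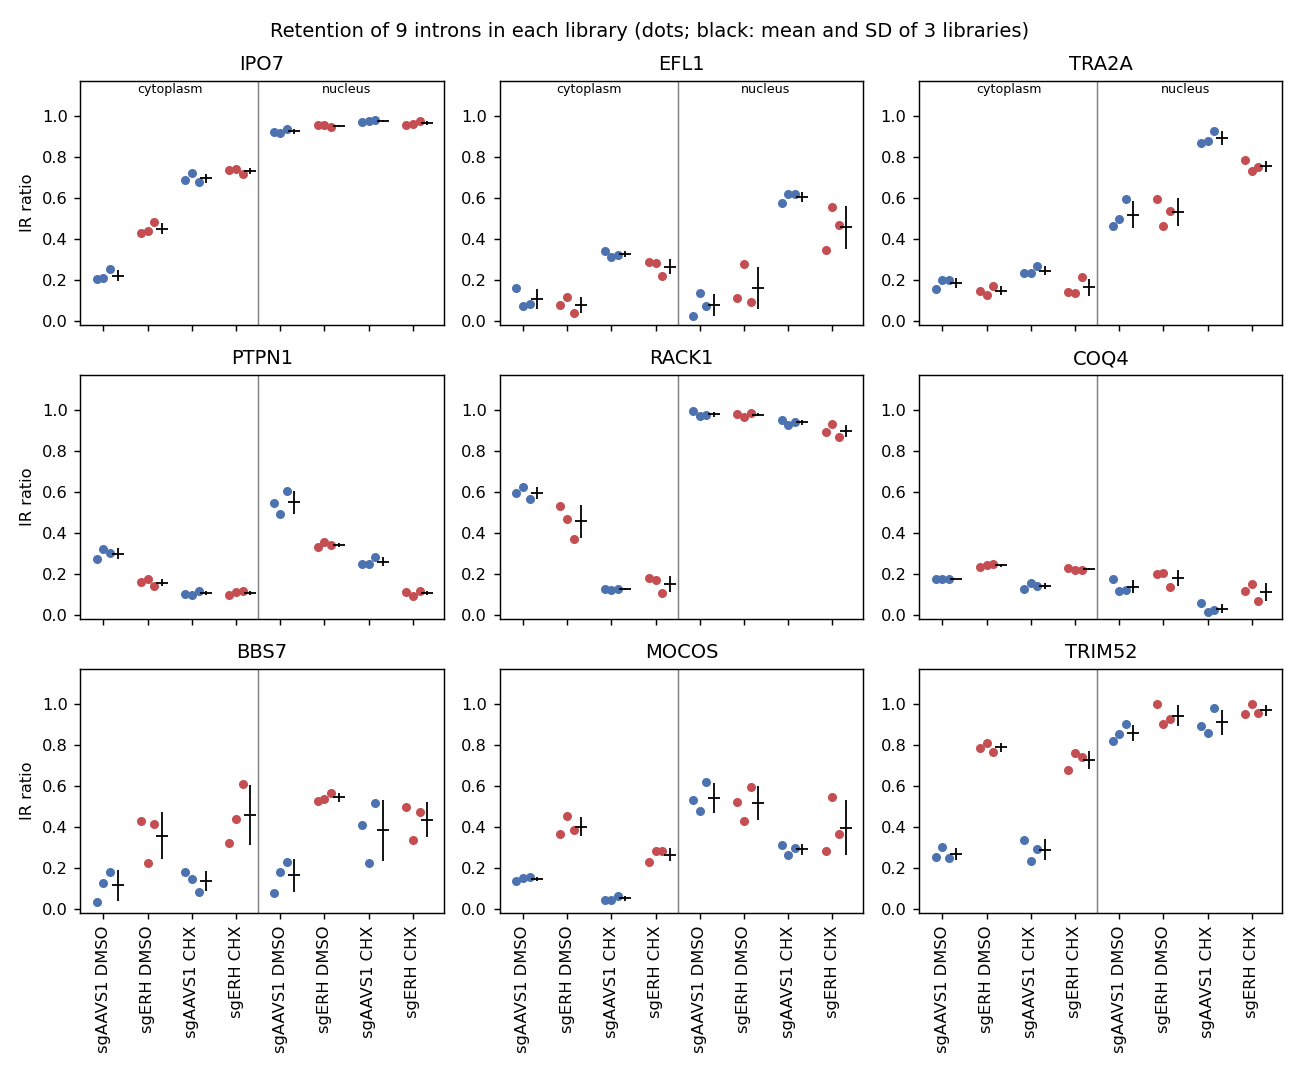
IR ratio (y axis) of 9 member introns in each of the 24 libraries (coloured dots, blue for sgAAVS1 and red for sgERH), by guide and treatment (x axis) and fraction, with the mean and SD of 3 libraries in black. IPO7 and EFL1 rise with CHX, PTPN1 and RACK1 fall, and TRIM52 and MOCOS are higher with sgERH in the cytoplasm.

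Without centring, nuclear retention of the members was lower with sgERH, as it was for introns at large. With DMSO, 109 of 1413 members were lower in sgERH than in sgAAVS1 nuclei and 10 higher, against 3.44% and 1.21% of all introns tested, and the medians were −0.41 and −0.37. With CHX, 357 were lower and 6 higher, against 19.7% and 0.746% of all introns, with medians of −0.78 and −0.94. With centring, 35 were lower and 14 higher with DMSO, against 1203 and 2094 of all 125590 introns, and 39 and 41 with CHX, against 1946 and 2495. The members' medians were then −0.11 and 0.07, and those of all introns −0.07 and −0.13. Centred, all introns were called higher more often than lower under both treatments, and members with CHX were about even. The direction in introns at large, and the fall of the members with CHX, thus depended on the scaling. Under neither scaling was the median fall of the members with CHX larger than that of all introns. Without 1 library, the 119 calls with DMSO became 56 to 82, fewer by over 1.5 times except without sgERH replicate 3. Without the library that stood apart, 280 were lower and 6 higher with CHX. Of the members lower with DMSO, 79 were lower with CHX too, 72.5% of the 109 and 22.1% of the 357, and these comparisons share no library. This overlap was not counted over all introns either.

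The members that went against this direction included BBS7, CEP76, CFAP54 and COQ4. BBS7, a subunit of the BBSome that moves ciliary proteins, had IR ratios of 0.0761, 0.18 and 0.23 in control and 0.528, 0.533 and 0.567 in sgERH nuclei with DMSO, for its last intron (chr4:121825994-121828145, − strand), without overlap (2.68 ± 0.53, adjusted p = 0.00641). With CHX the nuclear change was 0.38 ± 0.47 (adjusted p = 0.559) and no call. In the cytoplasm the values were 0.113 and 0.356 with DMSO and 0.134 and 0.456 with CHX. CEP76, a centriolar protein, had 0.192, 0.186 and 0.26 in control and 0.528, 0.506 and 0.496 in sgERH nuclei with CHX (1.96 ± 0.44, adjusted p = 0.00458), and 0.0804, 0.1 and 0.238 against 0.374, 0.315 and 0.473 with DMSO (2.13 ± 0.50, adjusted p = 0.0183). The DMSO call was lost without control replicate 1 (adjusted p = 0.116), control replicate 2 (0.0803) or sgERH replicate 3 (0.0777).

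CFAP54, of the ciliary axoneme, had 0.11, 0.0696 and 0.155 against 0.279, 0.306 and 0.453 with DMSO (2.03 ± 0.44, adjusted p = 0.0107), a call lost without control replicate 2 (adjusted p = 0.0562). COQ4 was higher with sgERH in nuclei with CHX, at 0.117, 0.151 and 0.0659 against 0.057, 0.0122 and 0.0203 (2.09 ± 0.50, adjusted p = 0.00622). In the cytoplasm with CHX it was at 0.229, 0.219 and 0.219 against 0.124, 0.153 and 0.141. The cytoplasmic change was 0.83 ± 0.12 (adjusted p = 0.00214), under the fold limit and no call, and after centring 0.56 (adjusted p = 0.0537). The 4 genes were chosen by the size of their change and form no tested group.

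Among the members lower with sgERH in nuclei was SHANK3, a synaptic scaffold, with the intron at chr22:50722438-50724126 (+ strand). Its IR ratio was 0.854, 0.908 and 0.912 in control and 0.633, 0.566 and 0.661 in sgERH nuclei with DMSO (−2.34 ± 0.39, adjusted p = 0.00201), and 0.913 against 0.599 with CHX (−2.78 ± 0.49, adjusted p = 0.000892). Both changes remained calls after centring. ARGLU1, an RNA-binding protein that modulates splicing, had 0.953, 0.945 and 0.951 against 0.878, 0.889 and 0.895 with DMSO (−1.27 ± 0.16, adjusted p = 0.000266). With CHX it had 0.947, 0.939 and 0.936 in control and 0.826, 0.784 and 0.826 in sgERH nuclei (−1.88 ± 0.17, adjusted p = 7.31e-06); after centring the changes were −0.96, no call, and −1.03. In the cytoplasm its values were 0.14 and 0.226 with DMSO, and 0.128 and 0.138 with CHX, so the fall was seen in nuclei. CD274, which encodes the immune checkpoint ligand PD-L1, had 0.271, 0.25 and 0.256 against 0.158, 0.143 and 0.145 in nuclei with DMSO, and 0.393, 0.389 and 0.394 against 0.221, 0.163 and 0.211 with CHX (−1.40 ± 0.16, adjusted p = 3.91e-05). Centred, the CHX change of CD274 was −0.55 and no call, and an exon of another gene lies in this intron.

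PTPRE, a receptor-type phosphatase, and ICAM3 had low depth in sgERH nuclei. PTPRE had IR ratios of 0.159, 0.25 and 0.3 in control and 0.0549, 0.0659 and 0.0488 in sgERH nuclei with DMSO (−2.27 ± 0.52, adjusted p = 0.0185), and was at 0.0 in all 3 sgERH nuclei with CHX. The DMSO call was lost without control replicate 2 (adjusted p = 0.0672) or 3 (0.0836) or sgERH replicate 1 (0.0577) or 3 (0.063). ICAM3 had 0.438, 0.63 and 0.406 against 0.0684, 0.0572 and 0.124 with DMSO (−3.42 ± 0.79, adjusted p = 0.0157), lost without control replicate 2 (0.067) or sgERH replicate 1 (0.0542) or 2 (0.0563). In both genes the guides did not overlap with DMSO.

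In the cytoplasm the effect of sgERH on the members was small and went in both directions. With CHX, 37 of 1433 members were higher in sgERH and 20 lower, which is 2.58% and 1.40%, against 0.599% and 0.298% of all introns tested. Here too the IR limit of a call favours the members. The medians were 0.11 in members and 0.25 in all introns. Centred, the members had 23 higher and 39 lower and a median of −0.16, and all 49272 introns 202 higher and 265 lower and a median of 0.02, so the balance of directions turned with the scaling in members and in all introns. Without 1 library, the 57 calls became 23 to 43, fewer by over 1.5 times except without sgERH replicate 2. NEAT1, another nuclear noncoding RNA, was at 116 CPM in control and 235 CPM in sgERH cytoplasm with CHX, and the part of nuclear RNA in these changes was not tested. With DMSO, as a description since the control arm chose the members, the medians were −0.01 and 0.48.

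The members that rose in sgERH cytoplasm with CHX included MOCOS, TRIM52 and CAPN15. MOCOS activates molybdenum enzymes, and its first intron (chr18:36187682-36195256, + strand) had IR ratios of 0.043, 0.0443 and 0.0616 in control and 0.227, 0.281 and 0.281 in sgERH cells. The guides were apart in all libraries (2.68 ± 0.27, adjusted p = 0.000114), and with DMSO the values were 0.146 and 0.4. TRIM52, a ubiquitin ligase gene, has a member that is the only intron of its transcript (chr5:181257495-181260000, − strand). It had 0.336, 0.234 and 0.293 against 0.675, 0.761 and 0.741 (2.67 ± 0.26, adjusted p = 9.75e-05), and 0.251, 0.299 and 0.249 against 0.785, 0.809 and 0.767 with DMSO. An exon of another gene overlaps each of these introns. TRIM52 as a gene was also higher in sgERH nuclei with DMSO (1.01 ± 0.07, adjusted p = 1.99e-08). CAPN15, of the calpain family, had 0.0181, 0.0233 and 0.0171 against 0.143, 0.079 and 0.0858 (2.64 ± 0.46, adjusted p = 0.0072), lost without control replicate 3 (0.0535) or sgERH replicate 1 (0.07).

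The 3 largest falls among the well-covered calls were in CUL7, LCAT and MMP24OS, none of which kept its call without each library in turn. CUL7, a scaffold of ubiquitin ligases, had 0.218, 0.292 and 0.201 in control and 0.0235, 0.078 and 0.087 in sgERH cytoplasm with CHX (−2.20 ± 0.47, adjusted p = 0.0238). It was lost without control replicate 1, 2 or 3 or sgERH replicate 1, with adjusted p of 0.0644, 0.096, 0.0591 and 0.0977. In nuclei with CHX it was lower as well, at 0.549, 0.512 and 0.539 against 0.285, 0.334 and 0.356 (−1.25 ± 0.18, adjusted p = 0.000254), with −0.40 after centring. LCAT, an enzyme of cholesterol esters, had 0.0804, 0.0681 and 0.059 against 0.0173, 0.0189 and 0.0224 (−2.01 ± 0.46, adjusted p = 0.0337). MMP24OS, a gene antisense to MMP24, had 0.543, 0.556 and 0.379 against 0.0939, 0.196 and 0.228 (−2.34 ± 0.57, adjusted p = 0.045). For LCAT and MMP24OS the omission of any 1 of the 6 libraries ended the call, with adjusted p of up to 0.136 and 0.249.

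The difference between fractions in the sgERH effect with CHX was also tested directly. In 38 of 1424 members the effect was lower in the nucleus than in the cytoplasm and in 0 higher, against 0.609% and 0.00086% of all introns tested, with medians of −0.95 and −1.10. At an unadjusted p under 0.05, 418 members differed in either direction, a count that was not made over all introns. DESeq2 called 10, all lower, of the 51 members for which it gave an adjusted p. None was called after centring. Without any 1 of the 6 cytoplasmic or 3 control nuclear libraries, only 2 to 11 were called. Without the nuclear library that stood apart, 40 were lower and 2 higher. ARGLU1 (−2.0 ± 0.30, adjusted p = 0.0102) kept its call without each library in turn, and after centring its value was −1.10 and no call.

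Of the 16 gene lists, 7 held members. The NMD factors (24 genes), the hosts of small nucleolar RNAs with noncoding NMD targets (24 genes) and the enzymes of SAM sensing and O-GlcNAc (6 genes) held none, nor did the genes the study follows or the marker lists. The hnRNP and other RNA-binding proteins had 4 members in 4 of 52 genes, of which 2 were lower with sgERH in nuclei with DMSO and 3 with CHX, where 3.44% and 19.7% of all introns were. DDX17, one of them, was no call with DMSO after centring (−0.81), and neither was ARGLU1, also on this list, as given above. The 9 members of DNA replication and repair genes lie in only 4 of 51 genes. The locus of the XRCC3 intron holds 5 members that share bases, so the 9 are not separate results. They were not called with sgERH in either nuclear comparison by edgeR, with medians of −0.67 with DMSO and 0.02 with CHX. The 3 members of CARS1, which charges tRNA with cysteine and is on the list of ATF4 targets, include 2 that overlap; all were lower with CHX in sgAAVS1 and in sgERH nuclei, and with sgERH in nuclei with CHX. For the one with the most depth (chr11:3001249-3001961, − strand), IR ratios were 0.226, 0.268 and 0.276 with DMSO and 0.183, 0.127 and 0.128 with CHX in control nuclei (−1.02 ± 0.29, adjusted p = 0.0282; lost without DMSO replicate 2 or 3 or CHX replicate 2 or 3, with an adjusted p of up to 0.104) and 0.172, 0.154 and 0.147 against 0.052, 0.0362 and 0.083 in sgERH nuclei (−1.73 ± 0.29, adjusted p = 0.000772). Of 3 ribosomal protein members RACK1 was lower with CHX in sgERH cytoplasm, while RPS24 had 0.461 with DMSO and 0.668 with CHX and was not called. Both members of mitosis genes, NEK2, a centrosome kinase, and CENPT, of the kinetochore, were lower with sgERH in nuclei with CHX, NEK2 at 0.577, 0.434 and 0.535 against 0.293, 0.245 and 0.306 (−1.43 ± 0.38, adjusted p = 0.0118). The NEK2 call was lost without control replicate 1 (adjusted p = 0.0526), that of CENPT (−1.02 ± 0.25, adjusted p = 0.00644) fell under the fold limit without control replicate 3 (−0.97) or sgERH replicate 3 (−0.92), and after centring neither was a call (−0.59 and −0.17).

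Host genes were called at a change of 1 or more on the log2 scale. At an unadjusted p under 0.05 without that limit, 514 of 921 differed with sgERH in nuclei with DMSO, 563 of 923 with sgERH in cytoplasm with CHX and 644 of 923 with CHX in sgERH cytoplasm. The same count was not made over all genes, so these numbers show nothing particular to host genes. With sgERH in nuclei with DMSO, 11 of 921 host genes were higher and 20 lower, against 4.77% and 1.73% of all genes tested. With sgERH in cytoplasm with CHX, 27 of 923 were higher and 11 lower, against 5.79% and 1.43%. With CHX in sgERH cytoplasm, 47 of 923 were higher and 20 lower, against 7.15% and 1.88%. ERCC1, of DNA excision repair, whose last intron is a member, was lower with sgERH in cytoplasm with CHX (−1.12 ± 0.06, adjusted p = 6.06e-10). Its mean level there was 587 CPM in control and 270 CPM in sgERH cells, while the retention of its intron was 0.258 and 0.166 and was not called.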

How the data were processed

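RNA of 24 libraries (8 groups of 3) was analysed as deposited. The authors aligned reads to GRCh38 with Ensembl 110 genes and ran IRFinder-S, whose deposited tables hold per intron a depth signal (trimmed mean depth), raw counts of spliced and boundary reads, and the IR ratio as a fraction; the deposited table of transcripts holds expected counts from salmon, which were summed per gene and rounded here. The submitters' notes name fastp 0.23.4 and SAMtools 1.16.1. Intron retention was tested in edgeR 4.0.16 (R 4.3.3) as the interaction of group and read type (rounded depth or spliced reads), with Benjamini-Hochberg adjustment over all introns tested, and host genes by the same quasi-likelihood test on counts kept at a minimum of 10 with TMM. Both steps were checked on simulated data. The introns changed there had higher depth and spliced reads than many members, so the check does not extend to calls at low depth. Named introns were, among well-covered calls, the 3 largest changes each way per comparison, the 10 deepest members, up to 2 per gene list and neighbours of the threshold. Members and lists were chosen with earlier results of these data known. Alternatives were another normalization per read type, DESeq2 1.42.0, exact junction or boundary reads, no filter, a replicate block and leaving out each library. Whether counting used strand is not stated. The authors' own comparison tables were not used.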

Additional observations from a re-analysis of the deposited data

Results flagged for a closer look

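With CHX, the sgERH effect differed between nucleus and cytoplasm by the interaction test in 38 members, all with the lower effect in the nucleus, and in none after TMM scaling of intron depth and spliced reads separately. Among those named, CAPN15 differed by −3.54 ± 0.60 on the log2 scale (edgeR, Benjamini-Hochberg adjusted p = 0.0167): its IR ratio was 0.0181, 0.0233 and 0.0171 in control and 0.143, 0.079 and 0.0858 in sgERH cytoplasm, and 0.746, 0.743 and 0.789 against 0.666, 0.528 and 0.648 in nuclei. The call was lost without control cytoplasm replicate 1, 2 or 3 or sgERH cytoplasm replicate 1 (adjusted p of 0.0539 to 0.0816).

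LZTR1, an adaptor of a ubiquitin ligase, differed by −3.21 ± 0.54 (edgeR adjusted p = 0.0157). It had 0.0237, 0.0511 and 0.0304 against 0.118, 0.0979 and 0.0755 in cytoplasm and 0.88, 0.923 and 0.928 against 0.737, 0.778 and 0.756 in nuclei. The call was lost without control cytoplasm replicate 1 or 3, sgERH cytoplasm replicate 1 or control nucleus replicate 3 (adjusted p of 0.0522 to 0.0576). B3GAT1, a glucuronyl transferase, differed by −3.23 ± 0.70 (edgeR adjusted p = 0.0438) and lost its call without any 1 of 10 of the 12 libraries, the exceptions being sgERH nucleus replicates 1 and 3. With that scaling, the 3 differences were −2.74, −2.36 and −2.33 and none was a call.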

How the results depend on the processing

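Counts of called members are given in both directions together. TMM scaling of intron depth and spliced reads separately gave 662 for nucleus against cytoplasm, 0 for the difference of the sgERH effect between fractions, 49 and 80 for sgERH in nuclei with DMSO and CHX, and 193 for CHX in sgERH nuclei. DESeq2 gave 10 for the difference between fractions (of 51 members with an adjusted p), 14 for sgERH in cytoplasm with CHX and 48 for CHX in sgERH cytoplasm. Spliced reads of the exact junction gave 7, then 59 and 196 for sgERH in nuclei with DMSO and CHX, and 92 for CHX in sgERH cytoplasm. Boundary reads in place of depth gave 62 and 218 for sgERH in nuclei, 214 for CHX in sgERH nuclei, 22 for sgERH in cytoplasm and 55 for CHX in sgERH cytoplasm. The cause was not tested. PIGL between fractions turned to 1.09 with exact junctions.

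Leaving out 1 library at a time gave 56 to 82 calls for sgERH in nuclei with DMSO (119 with all; moved by over 1.5 times except without sgERH replicate 3), 23 to 43 for sgERH in cytoplasm with CHX (57 with all; moved except without sgERH replicate 2), 74 to 100 for CHX in sgERH cytoplasm (143 with all; moved without DMSO replicate 1 or 3 or CHX replicate 1 or 3), and 2 to 42 for the difference between fractions (38 with all; moved without any cytoplasmic or control nuclear library). In fits of named introns, 224 kept the call and 70 lost it. The ranges were 285 to 378 for sgERH in nuclei with CHX, 190 to 212 and 265 to 337 for CHX in control and sgERH nuclei, and 1139 to 1147 between fractions.

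Whether same-numbered replicates were paired is not stated. Nucleus and cytoplasm were split from lysed cells, so same-numbered fractions may come from the same cells, and the main tests treat them as independent. In no comparison did every pair's deviations correlate over 0.1, but this cannot show that there was no pairing. For host genes with CHX in sgERH cytoplasm the correlations were −0.03, 0.2 and 0.21. With the replicate block the counts were 1170 for nucleus against cytoplasm, 47 for the difference between fractions, 111 and 365 for sgERH in nuclei, and 51 for sgERH in cytoplasm, and no count of the 11 moved by over 1.5 times. All 11 counts without a filter, and all 8 intron counts with 1 intron per locus or without introns over another gene's exon (both chosen after seeing the data), stayed within 1.5 times. Intron depth limits the calls: losses cannot be told from sampling where the depth is a few reads.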
